A study of Mus musculus with 10 samples.

Results

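Differentiated mouse keratinocytes that express A-C/EBP were compared directly with differentiated mouse keratinocytes treated with 5-azacytidine (5-AZA). The arrays were chosen by the condition in their titles, which gave 2 arrays of each, that is 4 of the 10 expression arrays of the study. The other 6 arrays are 4 of differentiated keratinocytes with neither agent, called controls here, and 2 of undifferentiated keratinocytes. All cells were primary cultures from the skin of newborn (P1) FVB mice. Undifferentiated cultures were kept in 0.05 mM calcium, and differentiation was started by 0.4 mM calcium for 2 days. The 5-AZA cultures were wild type and received 1 µM 5-azacytidine, according to the methods 6 h after seeding, whereas the labels place the treatment after 1 day in culture. The A-C/EBP cultures came from mice that carry A-C/EBP under tetracycline control in keratinocytes, and doxycycline was removed 24 h after seeding to start its expression. The promoter that restricts the transgene to keratinocytes is not given in the sources used here. Since the groups also differ in genotype and in exposure to doxycycline, these cannot be told apart from A-C/EBP itself. Neither the labels nor the methods say whether the arrays of a condition are separate cultures. The p-values rest on the spread within conditions pooled over all 10 arrays, the controls and undifferentiated arrays included. That spread may in part be technical.

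C/EBP proteins are leucine zipper transcription factors, and C/EBPα and C/EBPβ are known in epidermis for their part in the exit of keratinocytes from the cell cycle and in their differentiation. A-C/EBP is a dominant negative that dimerizes with members of that family and holds them off DNA. 5-Azacytidine is a cytidine analogue that is built into nucleic acids and traps DNA methyltransferases, so that methylation of CpG is lost as cells divide. Genes held silent by methylation, such as germline genes, are its classical targets.

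Levels are given as deposited on the log2 scale, so that a difference of 1 is a change of 2 fold, and all differences are the A-C/EBP mean minus the 5-AZA mean. Of 18194 genes, 374 (2.06%) were higher and 206 (1.13%) were lower with A-C/EBP than with 5-AZA at an adjusted p under 0.05 in limma. With only the 4 arrays of these conditions in the fit, 68 were higher and 28 were lower. By size alone, 972 genes (5.34%) were higher and 852 (4.68%) were lower by more than 0.5. Both A-C/EBP arrays lay above both 5-AZA arrays for 3309 genes (18.2%) and below them for 4576 (25.2%). The median difference over all genes was -0.03, with 7951 genes above 0 and 10243 below 0. The number of genes called depended on single arrays, since it fell to 81 higher and 44 lower without 5-AZA replicate 2, and to 134 higher and 47 lower without A-C/EBP replicate 2. Without 5-AZA replicate 1 there were 297 higher and 109 lower, and without A-C/EBP replicate 1 there were 246 higher and 196 lower.

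**Figure D1:**
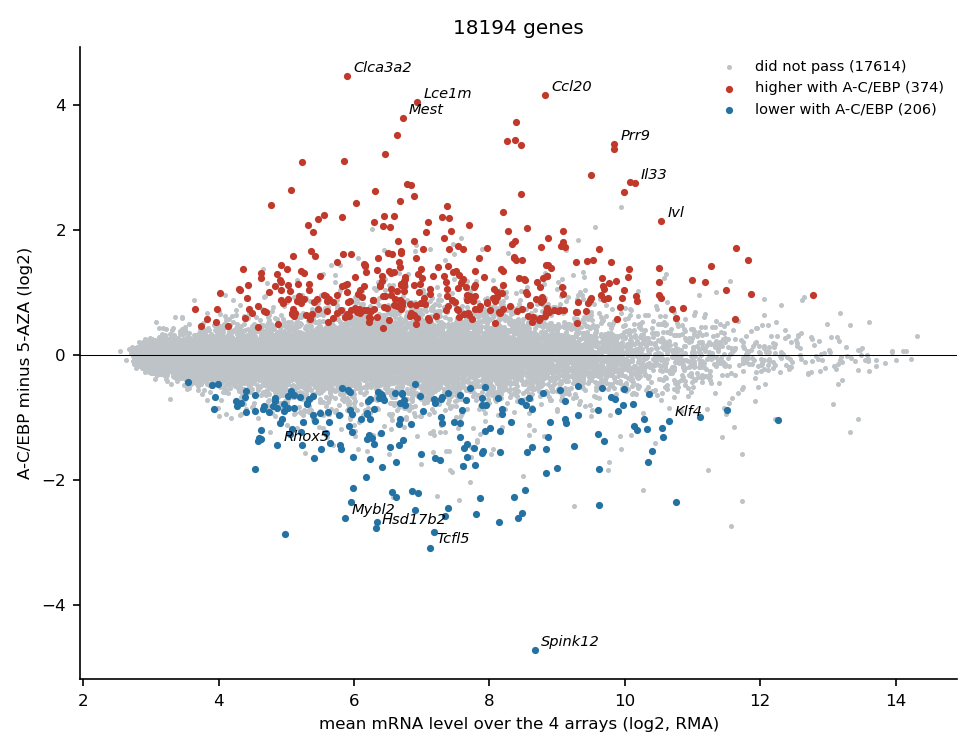
Difference between A-C/EBP and 5-AZA (y axis, log2) against the mean mRNA level over the 4 arrays (x axis, log2) for 18194 genes, each a point. Red points are the 374 genes higher and blue points the 206 genes lower with A-C/EBP at an adjusted p under 0.05, and Clca3a2 and Spink12 mark the extremes of the y axis at 4.46 and -4.72.

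Some properties of the arrays bear on the comparison. A-C/EBP replicate 2 stood apart in transcripts of the sex chromosomes, with Xist, which is transcribed from the inactive X chromosome, at 9.93 against 5.84 to 8.27 in the other 9 arrays, and with the Y-linked gene Eif2s3y at 3.74 against 5.40 to 6.03. Its hybridization controls averaged 11.34, against 9.50 for A-C/EBP replicate 1 and 9.99 and 10.59 for the 5-AZA arrays. Across genes, the 5-AZA arrays correlated less with each other (r = 0.9899) than 5-AZA replicate 1 did with control replicate 4 (r = 0.9945) or 5-AZA replicate 2 with control replicate 3 (r = 0.992). The A-C/EBP arrays correlated with each other at r = 0.9903 and with the 5-AZA arrays at r = 0.9748 to 0.9862. The 12 keratinocyte markers bore out the label of the cells, with a mean level of 10.78 to 11.32 in the 4 arrays, Krt14 at 11.96 to 12.05 and Krt5 at 12.75 to 13.61, and 0 of them passed the test. Fibroblast markers leaned lower with A-C/EBP, since 17 of 20 were below 0 with a median of -0.67 (-0.38 without 5-AZA replicate 1 and -0.98 without 5-AZA replicate 2), and their mean level was 5.59 and 6.06 in the A-C/EBP arrays against 6.77 and 6.25 in the 5-AZA arrays. Of these markers only Pdgfra passed the test (-0.58 ± 0.13 SE, adjusted p = 0.0425), with probe sets from -1.135 to -0.295. Its call was fragile and was lost without control replicate 1, 3 or 4 and after median centring. It was also lost with the brightest probe set and with the 4 or the 8 differentiated arrays alone. Without A-C/EBP replicate 1 the difference was -0.47. The matrix genes Dcn and Lum differed by 0.02 and -0.10. The part of these properties in the results was not tested. In bulk RNA, fewer cells of a type and less RNA per cell cannot be told apart.

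For each called gene, the 2 arrays of a condition were set beside the range of the 4 controls. Of the 374 genes higher with A-C/EBP, 125 (33.4%) had both A-C/EBP arrays above all controls and both 5-AZA arrays below all controls. Another 200 (53.5%) had the A-C/EBP arrays above all controls while the 5-AZA arrays did not clear the control range, and 42 (11.2%) had only the 5-AZA arrays outside, below all controls. Of the 206 genes lower with A-C/EBP, 80 (38.8%) had the A-C/EBP arrays below and the 5-AZA arrays above all controls, 64 (31.1%) had only the A-C/EBP arrays outside, and 58 (28.2%) had only the 5-AZA arrays outside, above all controls. Over all 18194 genes, the conditions lay on opposite sides of the controls for 186 genes (1.02%) with A-C/EBP above and for 156 (0.857%) with A-C/EBP below. Only the A-C/EBP arrays were outside for 9.19% of all genes (above) and 6.77% (below). Only the 5-AZA arrays were outside for 2.95% (below) and 8% (above). These shares are a description, because the call itself required that the conditions differ.

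**Figure D2:**
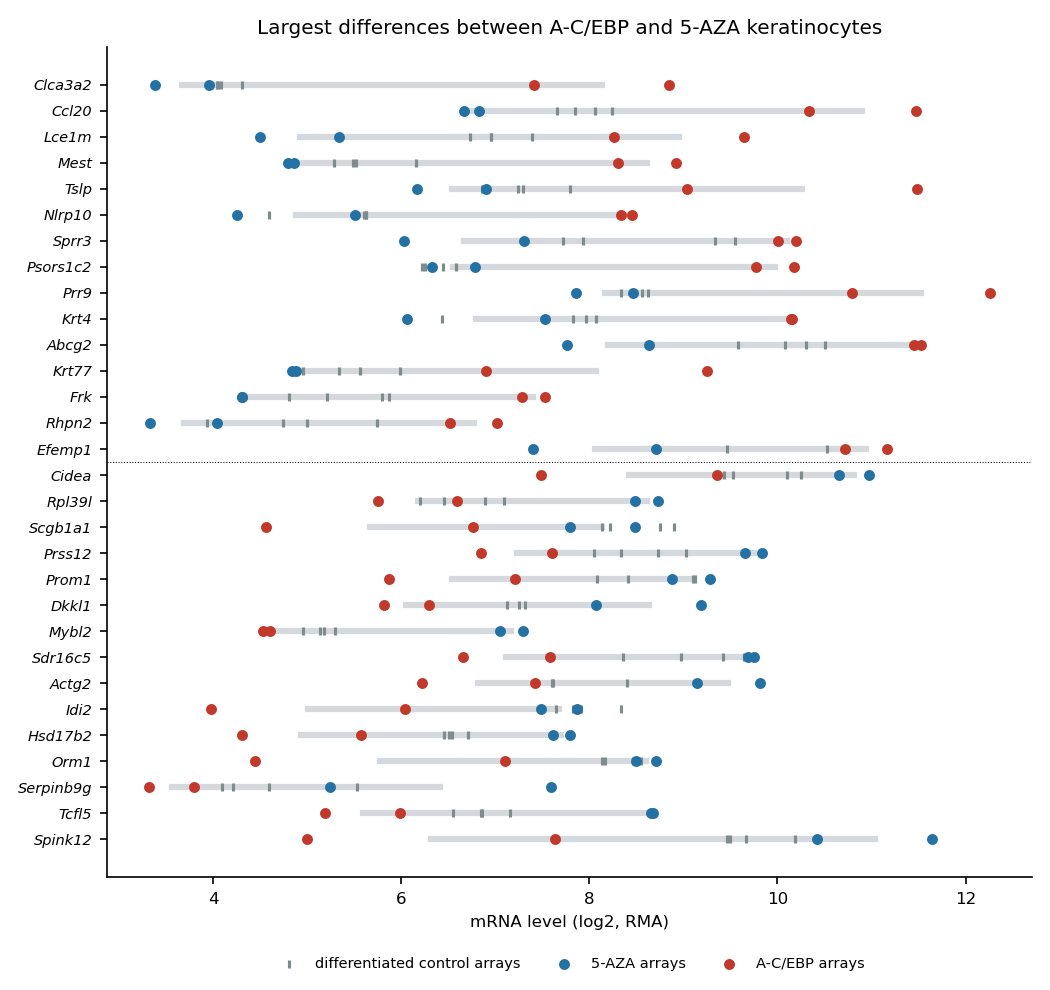
mRNA level (x axis, log2) of the 15 genes with the largest differences in each direction, taken from called genes with no overlap between the conditions. Red and blue points are the 2 A-C/EBP and the 2 5-AZA arrays, ticks are the 4 control arrays, and each grey bar joins the means of the conditions. Genes above the dotted line were higher with A-C/EBP, from Clca3a2 (4.46) to Efemp1 (2.88), and genes under it were lower, down to Spink12 (-4.72).

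Promoter sequences of 7 of the called genes are shown because they cover the range of CpG content that a demethylating agent and a DNA-binding inhibitor could meet, and these genes were picked after their values were seen. Each is the RefSeq promoter on mouse GRCm38.p6, 250 bases before to 50 bases after the start of the gene, written 5′ to 3′ on the strand of the gene. Capitals mark CG dinucleotides and matches to the motifs named after the sequences. Those higher with A-C/EBP are Ccl20 (chr1:83116516-83116815, + strand), Prr9 (chr3:92123898-92124197, - strand) and Ivl (chr3:92573686-92573985, - strand).
Ccl20: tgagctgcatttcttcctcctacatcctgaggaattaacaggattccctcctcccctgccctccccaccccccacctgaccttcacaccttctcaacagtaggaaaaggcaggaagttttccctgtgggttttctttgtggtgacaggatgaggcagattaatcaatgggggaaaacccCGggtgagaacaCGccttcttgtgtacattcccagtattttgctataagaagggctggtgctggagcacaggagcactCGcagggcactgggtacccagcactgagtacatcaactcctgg
Prr9: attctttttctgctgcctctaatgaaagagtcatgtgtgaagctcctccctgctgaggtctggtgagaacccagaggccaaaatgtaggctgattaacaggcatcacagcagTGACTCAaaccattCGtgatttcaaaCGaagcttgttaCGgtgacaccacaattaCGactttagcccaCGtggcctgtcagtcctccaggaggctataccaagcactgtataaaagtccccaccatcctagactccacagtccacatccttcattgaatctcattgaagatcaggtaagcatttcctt
Ivl: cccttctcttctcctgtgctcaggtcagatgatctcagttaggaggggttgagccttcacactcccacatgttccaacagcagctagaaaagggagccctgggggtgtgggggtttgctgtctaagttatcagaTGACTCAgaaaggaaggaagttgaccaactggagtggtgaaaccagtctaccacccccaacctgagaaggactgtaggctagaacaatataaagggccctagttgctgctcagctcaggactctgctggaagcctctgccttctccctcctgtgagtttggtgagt

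Those lower with A-C/EBP, and so higher with 5-AZA, are Tcfl5 (chr2:180642642-180642941, - strand), Mybl2 (chr2:163054385-163054684, + strand), Dkkl1 (chr7:45211834-45212133, - strand) and the X-linked Rhox5 (chrX:37754358-37754657, + strand).
Tcfl5: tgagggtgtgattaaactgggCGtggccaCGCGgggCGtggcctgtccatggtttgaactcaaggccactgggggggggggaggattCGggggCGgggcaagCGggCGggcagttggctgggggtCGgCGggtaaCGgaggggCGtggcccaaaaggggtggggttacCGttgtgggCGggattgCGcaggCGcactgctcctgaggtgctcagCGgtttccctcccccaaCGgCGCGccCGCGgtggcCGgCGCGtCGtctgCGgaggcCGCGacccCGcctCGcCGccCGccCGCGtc
Mybl2: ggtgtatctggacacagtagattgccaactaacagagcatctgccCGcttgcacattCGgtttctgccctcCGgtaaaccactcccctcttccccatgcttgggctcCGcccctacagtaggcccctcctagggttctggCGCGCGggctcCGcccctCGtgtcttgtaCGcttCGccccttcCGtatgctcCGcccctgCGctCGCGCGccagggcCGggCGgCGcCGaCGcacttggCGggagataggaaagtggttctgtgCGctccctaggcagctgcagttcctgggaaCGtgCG
Dkkl1: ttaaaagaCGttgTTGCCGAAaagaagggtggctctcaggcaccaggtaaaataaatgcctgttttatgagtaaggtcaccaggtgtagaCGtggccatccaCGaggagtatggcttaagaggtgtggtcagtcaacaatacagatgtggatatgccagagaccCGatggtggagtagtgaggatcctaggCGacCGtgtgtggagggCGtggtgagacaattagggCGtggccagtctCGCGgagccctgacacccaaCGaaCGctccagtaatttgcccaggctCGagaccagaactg
Rhox5: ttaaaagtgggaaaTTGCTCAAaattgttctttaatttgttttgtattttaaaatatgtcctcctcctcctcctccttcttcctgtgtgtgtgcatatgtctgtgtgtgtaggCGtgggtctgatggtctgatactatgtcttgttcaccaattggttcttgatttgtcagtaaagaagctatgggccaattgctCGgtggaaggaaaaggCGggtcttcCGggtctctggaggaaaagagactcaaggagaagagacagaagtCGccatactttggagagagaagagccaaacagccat

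The windows hold 3 CG in Ccl20, 5 in Prr9, 0 in Ivl, 35 in Tcfl5, 26 in Mybl2, 14 in Dkkl1 and 5 in Rhox5. The AP-1 motif TGANTCA occurred as TGACTCA at -138 in Prr9 and at -116 in Ivl, counted from the start of the gene. The C/EBP motif TTGCNNAA, searched on both strands, occurred at -237 in Dkkl1 and at -236 in Rhox5. These examples do not stand for their groups, since the median number of CG was 15 in the 403 windows of genes higher with A-C/EBP, 15.5 in the 180 windows of genes lower with A-C/EBP and 16 in the 18110 windows of all genes. Windows were matched by symbol for 297 of the 374 genes higher, 151 of the 206 genes lower and 14453 of all 18194 genes. TTGCNNAA was found in 10.4% of windows of the higher genes, 11.7% of the lower genes and 9.39% of all. TGANTCA was found in 8.93%, 8.89% and 6.38%, and the CRE TGACGTCA, to which CREB binds, in 0.993%, 1.67% and 2.49%. The palindrome TTGCGCAA, which the C/EBP motif includes, was in 0 windows of the called genes and in 0.237% of all. A match is a description of the letters and not of binding.

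The 44 gene lists examined differ in size. Among them, that of epidermal cytokines, chemokines and related genes held the most called genes with all arrays in the fit. Without 5-AZA replicate 2 the cornified envelope list held more. The lists were chosen with earlier results of these data known, so this rank is only a description. Of 37 epidermal cytokine genes, 10 were higher with A-C/EBP than with 5-AZA and 0 were lower, against 2.06% and 1.13% of all genes. The same shares are the comparison for the counts of called genes in the other lists. The median difference was 0.54 against -0.03 for all genes, although it was 0.25 without 5-AZA replicate 2. Ccl20, the chemokine that binds CCR6, was at 10.34 and 11.47 in the A-C/EBP arrays and at 6.83 and 6.67 in the 5-AZA arrays. The 4 controls lay between, at 7.66 to 8.24, so that the conditions stood on opposite sides of untreated differentiated cells. The difference of 4.15 ± 0.32 (SE) is 17.8 fold (adjusted p = 0.000478). Il33, an alarmin of the interleukin 1 family, was at 11.38 and 11.65 with A-C/EBP against 9.16 and 8.38 with 5-AZA, a difference of 2.75 ± 0.34 (adjusted p = 0.00365). In the controls Il33 spanned 8.77 to 9.88, so that its A-C/EBP arrays were above all of them and its 5-AZA arrays were not all below. Il1rn, the antagonist of the interleukin 1 receptor, showed levels of 8.98 and 9.32 with A-C/EBP, 7.64 and 7.52 with 5-AZA, compared to 7.62 to 7.74 in controls (1.57 ± 0.19, adjusted p = 0.00365).

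Nlrp10, a NOD-like receptor protein without leucine-rich repeats, is counted among the called genes of the list although it is not a cytokine. It reached 8.34 and 8.45 with A-C/EBP against 5.51 and 4.25 with 5-AZA (3.51 ± 0.42, adjusted p = 0.00281). Tslp, the epithelial cytokine linked to allergic inflammation, was at 9.04 and 11.48 with A-C/EBP and at 6.17 and 6.90 with 5-AZA (3.72 ± 0.62, adjusted p = 0.013). The A-C/EBP arrays of Tslp were far apart, with A-C/EBP replicate 2 close to the undifferentiated arrays (11.48 and 11.53) and both above all controls. The other members that passed were the neutrophil chemokines Cxcl1 (2.28) and Cxcl2 (1.96), Csf2, which codes for GM-CSF (2.19), Tnf (1.18) and Ccl5, a T cell chemokine (1.14). The values of these 5 were chosen for mention after they were seen. Icam1, the adhesion receptor for leukocytes, and Adgre5, which codes for the adhesion receptor CD97, were likewise noticed in the data. Icam1 was higher by 2.57 ± 0.38 (adjusted p = 0.00798). Adgre5 was at 11.47 and 11.45 with A-C/EBP, 8.80 and 8.59 with 5-AZA, compared to 8.66 to 9.24 in controls, a difference of 2.77 ± 0.19 (adjusted p = 0.000281). Il1b did not pass (-0.12, adjusted p = 0.816).

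Ccl20, Il33, Il1rn, Nlrp10 and Adgre5 passed with any of the 10 arrays left out. For the epidermal cytokine genes the count of 10 became 4 without 5-AZA replicate 2, 5 without 5-AZA replicate 1 and 6 without A-C/EBP replicate 2. Tslp reached an adjusted p of 0.063 without 5-AZA replicate 1, Cxcl2 0.11, Cxcl1 0.18, Ccl5 0.14 and Tnf 0.19 without 5-AZA replicate 2, and Csf2 0.26 and Icam1 0.065 without A-C/EBP replicate 2. Csf2 was also lost after median centring (adjusted p = 0.056) and after quantile normalization (0.054). Immune cell markers were near the middle of the arrays or under it, with mean levels of 4.98 and 4.92 in the A-C/EBP arrays against 4.80 and 4.94 in the 5-AZA arrays, and 0 of 21 passed the test. Their differences ranged from -0.77 to 1.70, the latter for Lyz2.

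The antimicrobial and alarmin genes did not follow the cytokines. Of 27 members 0 were higher and 1 was lower, Wfdc5, a protease inhibitor of the WAP family (-1.54 ± 0.27, adjusted p = 0.0164). S100a8 and S100a9, the subunits of calprotectin, were singled out after their values were seen and differed by -2.73 and -2.33 without passing the test (adjusted p = 0.0934 and 0.156). Their A-C/EBP arrays disagreed, since S100a8 was at 11.67 and 8.74 with A-C/EBP against 12.58 and 13.29 with 5-AZA. In the opposite direction, Lyz2 had the largest positive difference of the list at 1.70 and did not pass. Of the 27 members 10 were above 0 and 17 below. The call of Wfdc5 was lost without 5-AZA replicate 2 (adjusted p = 0.12). Among 45 interferon response genes, Rsad2, the antiviral protein viperin, was higher (1.67 ± 0.15, adjusted p = 0.000856), and Isg20 (-0.65) and Ifi47 (-0.90) were lower. The shares of all genes were 2.06% higher and 1.13% lower. Rsad2 passed in every omission, whereas the adjusted p was 0.24 for Isg20 without A-C/EBP replicate 2 and 0.19 for Ifi47 without A-C/EBP replicate 1.

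**Figure D3:**
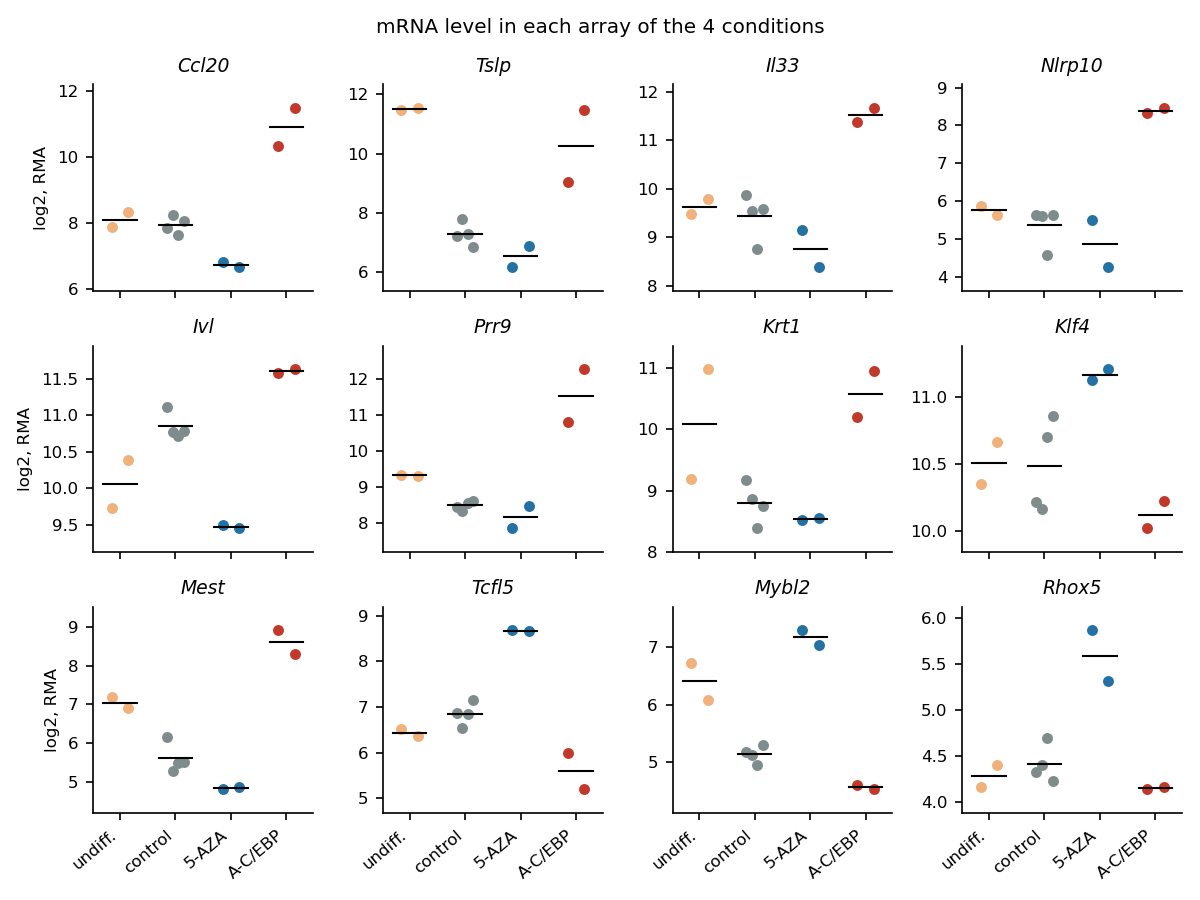
mRNA level (y axis, log2, scaled for each gene) of 12 genes in each of the 10 arrays, with a bar at the mean of each condition. Ccl20, Ivl and Mest had both A-C/EBP arrays above and both 5-AZA arrays below the 4 controls, Tcfl5, Mybl2 and Rhox5 had the reverse, and Krt1 did not pass the test (2.04, adjusted p = 0.0534). The A-C/EBP arrays of Mybl2 and Rhox5 were under the median probe set, where a signal is not shown to exceed background.

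Genes of the cornified envelope, the protein shell of the outermost epidermal cells, were divided. Of 46 members 6 were higher with A-C/EBP, 0 were lower and 40 did not pass, and the median of 0.02 was close to that of all genes. Ivl, which codes for involucrin, an early scaffold of the envelope, was at 11.59 and 11.63 with A-C/EBP and at 9.50 and 9.45 with 5-AZA. All 4 controls lay between them at 10.72 to 11.11, and the difference was 2.14 ± 0.20 (4.40 fold, adjusted p = 0.000864). Prr9, a proline-rich protein coded in the epidermal differentiation complex, was at 10.80 and 12.26 against 7.86 and 8.47 (3.37 ± 0.37, adjusted p = 0.00219). Lce1m, a late cornified envelope gene, was at 8.26 and 9.64 against 4.50 and 5.34 (4.03 ± 0.48, adjusted p = 0.00281), and its controls at 6.73 to 7.39 again lay between. The small proline-rich gene Sprr3 (3.44), its relative Sprr2f (2.46, named after its value was seen) and Ppl, which codes for periplakin (1.19), were the other members that passed.

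The best known late marker of the envelope, Lor (loricrin), did not differ at the threshold (-0.01 ± 0.38, adjusted p = 0.995), with 7.86 and 7.23 against 7.05 and 8.06. Sprr1a was at 14.05 to 14.51 in all 4 arrays, near the highest value of each array (0.30 ± 0.29, adjusted p = 0.712). Ivl, Prr9, Lce1m and Ppl passed with any of the 10 arrays left out. Prr9 did not pass with the 4 compared arrays alone (adjusted p = 0.056). Sprr3 (adjusted p = 0.085) and Sprr2f (0.22) did not pass without A-C/EBP replicate 2, and the number of envelope genes called ranged from 4, without 5-AZA replicate 1 or A-C/EBP replicate 2, to 8, without 5-AZA replicate 2. The list's median turned to -0.26 without 5-AZA replicate 1 and to 0.46 without 5-AZA replicate 2. Psors1c2, a gene of the psoriasis susceptibility locus that is expressed in skin, was among the largest differences, at 9.77 and 10.18 with A-C/EBP, 6.32 and 6.78 with 5-AZA, compared to 6.22 to 6.58 in controls (3.42 ± 0.20, adjusted p = 0.00012).

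Among keratins, the mucosal keratin Krt4 (3.35 ± 0.57, adjusted p = 0.014) and the suprabasal keratin Krt77 (3.22 ± 0.60, adjusted p = 0.0222) were higher with A-C/EBP, which makes 2 of 10 suprabasal and differentiation keratins. The list was split around a median of 0.18, which ranged from -0.05 to 0.53 as single arrays were left out. Among all 18194 genes 10243 were below 0, and 25.2% had both A-C/EBP arrays below both 5-AZA arrays. In the list 5 of 10 members were below 0, and 3 of them had both A-C/EBP arrays below both 5-AZA arrays. Krt79, a keratin of the hair follicle infundibulum, was the lowest of them, at 9.29 and 9.11 with A-C/EBP against 12.11 and 10.60 with 5-AZA, and did not pass (-2.16 ± 0.67, adjusted p = 0.136). Krt80 (-0.73) and Krt23 (-0.53) did not pass either. Krt1, the main suprabasal keratin, was at 10.21 and 10.95 with A-C/EBP against 8.52 and 8.55 with 5-AZA without passing (2.04 ± 0.48, adjusted p = 0.0534), although the arrays did not overlap. Its partner Krt10 differed by 0.82 ± 0.47 (adjusted p = 0.469). Of 22 basal keratinocyte genes 2 were higher, the basal keratin Krt15 (2.21 ± 0.26, adjusted p = 0.00276) and the ligand Wnt4 (1.51 ± 0.26, adjusted p = 0.0163), and 20 of 22 had a difference above 0, with a median of 0.44 that was 0.19 without 5-AZA replicate 2 and 0.79 without 5-AZA replicate 1. Itga6, the integrin that anchors basal cells, was singled out for its value of 1.67 and did not pass (adjusted p = 0.0542). Simple epithelial keratins Krt8 (1.29), Krt18 (1.01) and Krt19 (1.76) did not pass either. The calls of Krt4, Krt77 and Wnt4 were lost without 5-AZA replicate 2, and that of Krt15 was kept in every omission. With the 4 compared arrays alone Krt15 did not pass (adjusted p = 0.051).

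Junction genes were called about as often as genes in general. Of 15 tight junction genes only Tjp3, which codes for ZO-3, passed, at 7.43 and 7.28 with A-C/EBP, 5.27 and 5.19 with 5-AZA, compared to 4.87 to 5.28 in controls (2.13 ± 0.19, adjusted p = 0.000759). Of 13 desmosome genes 0 passed, and the desmocollins differed by 0.16 (Dsc1), 0.36 (Dsc2) and 0.23 (Dsc3). Cldn4, a claudin, differed by 0.31 ± 0.46 (adjusted p = 0.827). Barrier lipid genes were split around 0 with a median of 0.02, and the lipase Lipk (2.20), the elongase Elovl6 (0.96) and the ceramidase Acer1 (1.00) passed among 35. Spink12, a serine protease inhibitor of the Kazal type, had the largest difference of all genes that passed, at 7.64 and 5.00 with A-C/EBP, 10.42 and 11.65 with 5-AZA, compared to 9.46 to 10.19 in controls (-4.72 ± 0.72, 26.3 fold lower, adjusted p = 0.00925). It was the only 1 of 16 kallikreins and their inhibitors that passed. Without 5-AZA replicate 2 the adjusted p of Spink12 was 0.079, and without A-C/EBP replicate 2 that of Lipk was 0.055 and that of Elovl6 and Acer1 0.19. The probe sets of Acer1 disagreed (1.71 and 0.29), and with the brighter of them the call was lost (adjusted p = 0.49). For Elovl6 they differed by 1.39, 1.40 and 0.10.

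Epidermal regulators were represented by the genes of 38 transcription factors and signals, of which 4 were higher and 1 was lower. Among all genes these shares were 2.06% and 1.13%. Tfap2b, an AP-2 factor, was at 7.82 and 7.91 with A-C/EBP and at 6.17 in both 5-AZA arrays (1.69 ± 0.19, adjusted p = 0.00219). Elf3, an epithelial ETS factor (1.98), Gata3 (1.26) and the Notch ligand Dll1 (1.36, named after its value was seen) were higher as well. Klf4, a factor needed for the epidermal barrier, was lower, at 10.02 and 10.23 with A-C/EBP, 11.13 and 11.21 with 5-AZA, compared to 10.17 to 10.86 in controls (-1.05 ± 0.23, adjusted p = 0.0393). Tfap2b passed in every omission, whereas without 5-AZA replicate 2 the adjusted p was 0.23 for Elf3, 0.24 for Gata3 and 0.20 for Klf4. With A-C/EBP replicate 2 left out 1 gene of the list was higher and 0 were lower, and after median centring 1 was higher and 1 lower.

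The C/EBP, CREB and AP-1 genes that the study concerns did not pass the test. Of 5 C/EBP family genes 0 passed, with Cebpa at 9.12 and 8.85 against 8.60 and 8.13 (0.62 ± 0.26, adjusted p = 0.294) and Cebpb at 10.40 and 10.56 against 10.78 and 9.62 (0.27 ± 0.36, adjusted p = 0.799). Of 13 AP-1 family genes 0 passed, with Jun at 0.00, Junb at 0.28, Fos at -0.33 and Fosl2 at -0.01. Creb1 differed by 0.13, and in the CREB and ATF family only the stress-induced Atf3 passed of 17 (1.33 ± 0.29, adjusted p = 0.0358, and 0.19 without 5-AZA replicate 2). A-C/EBP acts on the protein, and whether the arrays detect the transgene was not tested. Ccnd1 (-0.22), Egfr (0.16), Star (0.06), Dnase1l3 (-0.87) and Rps19 (-0.39) did not pass either.

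Germline genes, the classical targets of demethylation, were near the floor of the arrays in both conditions. Of 52 germline and methylation-silenced genes, 43 were under the median probe set of all 4 arrays, where a signal is not shown to exceed background. Rhox5, an X-linked homeobox gene of the reproductive tract, was the only member that passed, at 4.14 and 4.17 with A-C/EBP, 5.86 and 5.31 with 5-AZA, compared to 4.23 to 4.69 in controls. The difference of -1.44 ± 0.20 (2.71 fold lower, adjusted p = 0.0055) held in every omission. With the 4 compared arrays alone Rhox5 did not pass (adjusted p = 0.055). Both A-C/EBP arrays of Rhox5 were under the median probe set of their array (4.67 and 4.76), so a level below the controls is not shown. Tcfl5, a basic helix-loop-helix factor of spermatogenesis that is not in the list, was at 5.99 and 5.19 with A-C/EBP, 8.68 and 8.66 with 5-AZA, compared to 6.54 to 7.15 in controls (-3.08 ± 0.25, adjusted p = 0.00052). Dkkl1, an acrosomal protein of sperm, was at 6.29 and 5.82 with A-C/EBP against 8.07 and 9.19 with 5-AZA (-2.58 ± 0.38, adjusted p = 0.00734). Rpl39l, a ribosomal protein paralogue enriched in testis, was at 5.76 and 6.59 against 8.48 and 8.73 (-2.44 ± 0.34, adjusted p = 0.00594). Of these, Tcfl5 passed in every omission, Dkkl1 did not without A-C/EBP replicate 2 (adjusted p = 0.061) and Rpl39l did not without 5-AZA replicate 2 (adjusted p = 0.056). The list's own median of -0.05 was close to that of all genes.

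Imprinted genes, which are transcribed from the copy of a single parent, included 1 higher and 2 lower of 49. Among all genes 2.06% were higher and 1.13% were lower. With counts this small, and no test of the list, they are a description only. Mest was at 8.92 and 8.30 with A-C/EBP, 4.80 and 4.86 with 5-AZA, compared to 5.28 to 6.15 in controls (3.78 ± 0.28, 13.7 fold, adjusted p = 0.000345). Peg3, an imprinted zinc finger gene, was lower, at 6.25 and 5.84 with A-C/EBP, 7.21 and 7.58 with 5-AZA, compared to 7.18 to 7.38 in controls (-1.35 ± 0.17, adjusted p = 0.00371). The A-C/EBP arrays of Mest were above and those of Peg3 were below all controls. The probe sets of Peg3 disagreed, since 3 of them differed by -2.03 to -2.30 and the other 2 by -0.03 and -0.09. With the 4 compared arrays alone Peg3 did not pass (adjusted p = 0.063). Mest and Peg3 passed in every omission, and Mcts2, an imprinted retrogene (-0.61), did not without 5-AZA replicate 2 (adjusted p = 0.20). In the DNA methylation machinery 3 of 22 genes were higher. One was the methyltransferase Dnmt3a (0.75 ± 0.17, adjusted p = 0.0494), with probe sets from -0.15 to 1.31. Its call was fragile and was lost without control replicate 1, 2 or 4 and after median centring. It was also lost with the brightest probe set, without probe sets of an _s, _x or _a suffix, and with the 4 or the 8 differentiated arrays alone. Without 5-AZA replicate 2 the difference was 0.52.

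Cell cycle genes leaned lower with A-C/EBP, but few passed the test. For comparison, 10243 of all 18194 genes were below 0, and 25.2% had both A-C/EBP arrays below both 5-AZA arrays. Of 43 mitosis genes 42 had a difference below 0, 32 had both A-C/EBP arrays below both 5-AZA arrays, and the median was -0.42, yet 1 passed. That gene was Mybl2, which codes for the cell cycle transcription factor B-Myb, at 4.60 and 4.53 with A-C/EBP, 7.29 and 7.04 with 5-AZA, compared to 4.95 to 5.29 in controls (-2.60 ± 0.20, 6.07 fold lower, adjusted p = 0.000381). The A-C/EBP arrays of Mybl2 were under the median probe set, and its 5-AZA arrays were above the undifferentiated arrays as well. The mean level of the mitosis genes was 4.92 and 4.91 in the A-C/EBP arrays, 5.66 and 5.22 in the 5-AZA arrays and 5.13 to 5.95 in the controls, so that the 5-AZA arrays were inside the control range. The list's median ranged from -0.25 without 5-AZA replicate 1 to -0.56 without 5-AZA replicate 2, and Mybl2 passed in each.

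Of 36 DNA replication genes 32 were below 0 with a median of -0.29 that was -0.08 without 5-AZA replicate 1, and 3 passed, namely Gmnn, the inhibitor of origin licensing (-1.10), the primase Prim1 (-0.76) and the clamp loader subunit Rfc5 (-0.62). None of the 3 passed without 5-AZA replicate 1, without 5-AZA replicate 2 or without A-C/EBP replicate 2, or after median centring of the arrays. Among 31 p53 target genes 4 were higher, Gadd45a (1.55), Gadd45b (1.23), Pmaip1, which codes for NOXA (1.05), and Btg2 (0.92), and 0 were lower. That count was 0 without 5-AZA replicate 2 and 0 without A-C/EBP replicate 2. Trp53 itself was not analysed here.

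**Figure D4:**
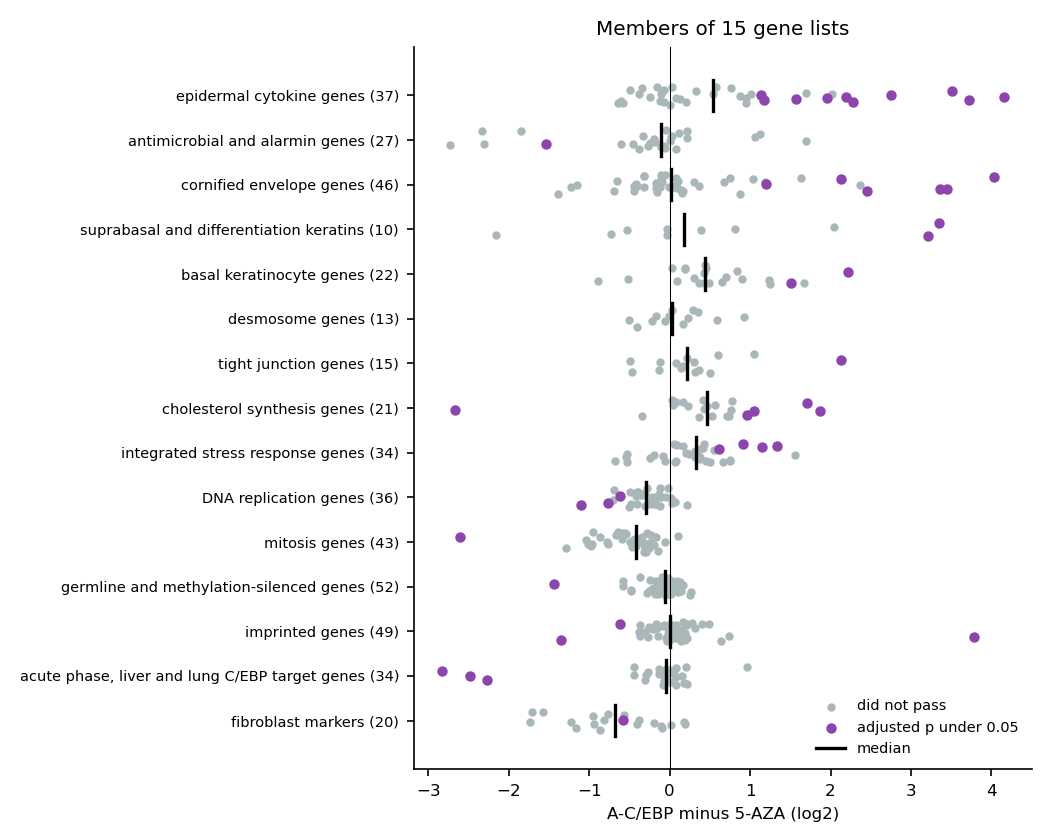
Difference between A-C/EBP and 5-AZA (x axis, log2) for the members of 15 gene lists, with the number of members measured in parentheses. Purple points passed the test, grey points did not, and black bars are medians. The epidermal cytokine genes had a median of 0.54 with 10 members called higher, and the fibroblast markers and mitosis genes had medians of -0.67 and -0.42 with 1 member called lower in each.

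Metabolic genes gave a few calls. Of 21 cholesterol synthesis genes 19 were above 0 with a median of 0.47, and Sc5d (1.70 ± 0.17, adjusted p = 0.00111), the feedback regulator Insig1 (1.87), Nsdhl (0.96) and Hmgcs1, the synthase of the early pathway (1.05, named after its value was seen), were higher. Idi2, an isopentenyl diphosphate isomerase, was lower, at 6.04 and 3.98 with A-C/EBP, 7.49 and 7.87 with 5-AZA, compared to 7.64 to 8.33 in controls (-2.67 ± 0.53, adjusted p = 0.026). The mean level of the list was 8.31 and 8.03 with 5-AZA, 8.72 and 8.46 with A-C/EBP and 8.56 to 8.88 in controls. Both 5-AZA arrays and A-C/EBP replicate 2 were below the control range. The 4 higher members became 1 without 5-AZA replicate 2, without A-C/EBP replicate 1 or without A-C/EBP replicate 2, whereas Sc5d passed in every omission. Idi2 reached an adjusted p of 0.17 without 5-AZA replicate 2. Of 34 integrated stress response genes 4 were higher, the serine synthesis enzymes Phgdh (0.91 ± 0.12, adjusted p = 0.00458) and Psat1 (1.15), Mthfd2 of folate metabolism (0.62) and Atf3. That number was 1 without A-C/EBP replicate 2 and 2 without either 5-AZA array.

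Of 32 glycolysis and hypoxia genes 4 were higher, Ndrg1 (1.49), the prolyl hydroxylase Egln3 (1.82), the glucose transporter Slc2a3 (2.12) and the aldolase Aldoc (0.94), and 0 were without 5-AZA replicate 2. In glutathione metabolism the transferase Gstm5 was at 11.35 and 11.23 with A-C/EBP, 8.81 and 8.57 with 5-AZA, compared to 8.39 to 8.70 in controls (2.60 ± 0.14, 6.06 fold, adjusted p = 8.91e-05), the smallest adjusted p of the genes described. Gpx2, a glutathione peroxidase of epithelia, was lower, at 5.55 and 5.26 against 7.08 and 7.04 (-1.65 ± 0.22, adjusted p = 0.00458). Gstm5 departed from the controls in the A-C/EBP arrays and Gpx2 in the 5-AZA arrays, whose levels were above 6.11, the highest control. In the prostaglandin list, 3 of 19 were higher, the carbonyl reductase Cbr2 (2.73 ± 0.26, adjusted p = 0.000887), the prostaglandin E synthase Ptges (1.82 ± 0.23, adjusted p = 0.0038) and the prostaglandin D synthase Hpgds (1.70, adjusted p = 0.047), and the phospholipase Pla2g2f was lower (-1.62). Ptges did not pass with the 4 compared arrays alone (adjusted p = 0.053). Gstm5, Gpx2, Cbr2 and Ptges passed in every omission, whereas the adjusted p was 0.26 for Hpgds without A-C/EBP replicate 2 and 0.064 for Pla2g2f without 5-AZA replicate 2.

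Ribosomal protein (31), ribosome biogenesis (36) and respiratory chain genes (42) held 0 called genes each, with medians of -0.14, -0.09 and -0.11, of which that of ribosome biogenesis ranged from -0.27 to 0.02 as single arrays were left out. At an unadjusted p under 0.05, 4, 6 and 4 of them passed. Their levels were high, with a mean of 11.23 to 11.47 for ribosomal proteins in the 4 arrays.

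Secreted signals were lower with A-C/EBP for Tgfb3, a ligand of the TGF-β receptors, at 5.50 and 5.48 against 8.22 and 7.28 (-2.26 ± 0.35, adjusted p = 0.01), and for Bmp4 (-1.09). Bmp2 (1.20) and the receptor Tgfbr2 (1.05) were higher. Of the 35 genes of TGF-β and EGF signalling the other 31 did not pass. Some genes of retinoid handling were picked because their values were lower with A-C/EBP, and a full list of the pathway was not examined. Rdh10, a retinol dehydrogenase, was at 8.48 and 7.73 against 9.79 and 10.02 (-1.80 ± 0.26, adjusted p = 0.00715), Sdr16c5, an epidermal retinol dehydrogenase, differed by -2.61 ± 0.40 (adjusted p = 0.00915), the binding protein Crabp1 by -2.15 and the retinol importer Stra6 by -2.17. The A-C/EBP arrays of both dehydrogenases were below all controls, and their 5-AZA arrays were above all of them. Without 5-AZA replicate 2 the adjusted p was 0.065 for Rdh10, 0.17 for Bmp2 and 0.24 for Tgfbr2. Without A-C/EBP replicate 2 it was 0.066 for Sdr16c5, 0.19 for Stra6, 0.065 for Tgfb3 and 0.19 for Bmp4, and without A-C/EBP replicate 1 it was 0.12 for Crabp1. Bmp4 (adjusted p = 0.055), Tgfbr2 (0.067) and Stra6 (0.075) were lost after median centring too, and the probe sets of Tgfbr2 ranged from 0.04 to 1.74.

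Targets of C/EBP proteins known from liver and lung included 3 lower genes of 34, while 22 of the 34 were under the median probe set in all 4 arrays. Orm1, an acute phase glycoprotein, was at 7.10 and 4.44 with A-C/EBP, 8.49 and 8.71 with 5-AZA, compared to 8.14 to 8.55 in controls (-2.83 ± 0.62, adjusted p = 0.0399). Scgb1a1, the secretoglobin of airway club cells, was at 6.77 and 4.56 against 7.80 and 8.48 (-2.48 ± 0.57, adjusted p = 0.048). Serpina11 was at 8.09 and 6.38 against 9.64 and 9.36 (-2.27 ± 0.51, adjusted p = 0.0448). In all 3 the A-C/EBP arrays were below every control, and the A-C/EBP arrays differed from each other by more than the controls did. These calls were fragile, since 0 of the 3 passed without either 5-AZA array, with adjusted p up to 0.21 for Orm1 and 0.28 for Scgb1a1 without 5-AZA replicate 2 and 0.22 for Serpina11 without A-C/EBP replicate 2. After median centring 0 of the 3 passed as well.

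The remaining large differences belong to genes of mixed function. Higher with A-C/EBP were Clca3a2, a member of the chloride channel accessory family, at 7.41 and 8.85 against 3.96 and 3.38 (4.46 ± 0.37, adjusted p = 0.000523), the drug exporter Abcg2 (3.29), the tyrosine kinase Frk (3.10) and Efemp1, which codes for fibulin 3 (2.88). The 5-AZA arrays of Clca3a2 and Frk were under the median probe set, so that their differences may be understated. Lower were the steroid dehydrogenase Hsd17b2, at 5.57 and 4.31 against 7.61 and 7.79 (-2.76 ± 0.31, adjusted p = 0.00221), the protease Prss12 (-2.52 ± 0.32, adjusted p = 0.00381), the stem cell surface protein Prom1 (-2.54), the lipid droplet protein Cidea (-2.39) and Serpinb9g (-2.86). Actg2, a smooth muscle actin, was at 6.22 and 7.42 against 9.81 and 9.15 (-2.66 ± 0.41, adjusted p = 0.00934), and Tagln, another gene of contractile cells, differed by -1.31. These are the only called members of the 12 muscle markers, whose mean level was 5.43 and 5.65 with A-C/EBP against 5.94 and 5.93 with 5-AZA, beside the fibroblast markers Vim (-1.71, adjusted p = 0.0859) and Col6a1 (-1.74, adjusted p = 0.144). Clca3a2, Abcg2, Frk, Hsd17b2, Prss12 and Actg2 passed in every omission. With the 4 compared arrays alone, Hsd17b2 (adjusted p = 0.055) and Actg2 (0.067) did not pass. Without 5-AZA replicate 2 the adjusted p was 0.13 for Efemp1, 0.20 for Cidea and 0.22 for Serpinb9g, without A-C/EBP replicate 2 it was 0.096 for Prom1, and without 5-AZA replicate 1 it was 0.063 for Tagln.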

How the data were processed

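mRNA was measured on Affymetrix mouse expression arrays, 1 per sample. The deposited values are log2 signals per probe set, which the authors made by RMA in Affymetrix Expression Console (per the submitters' processing notes; versions are not given in the sources used here). They were used as deposited. Of the probe sets, 34958 carried 1 gene symbol in the platform annotation and were averaged to 18194 genes, 9012 of them from more than 1 probe set; 932 probe sets with several symbols and 9211 with none were left out. The number of arrays, 2 per condition, limits the precision.

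All 10 arrays entered 1 fit in limma 3.58.1 (R 4.3.3) with a mean per condition and 6 residual degrees of freedom. The contrast was A-C/EBP minus 5-AZA, two-sided, with Benjamini-Hochberg adjustment over all genes, and called means an adjusted p under 0.05. In simulated data of 18194 genes for this contrast, 74% of genes changed by 1 and 96% of those changed by 2 were recovered, with 14 false calls. The simulated noise was independent between genes and had the same spread for a gene in every array. Deviations shared by the genes of an array were not simulated, so these rates may not hold for the real arrays.

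Named were the genes that the study discusses, the 15 largest differences in each direction among called genes without overlap between arrays, and for each of 44 lists up to 4 members of smallest adjusted p; others are marked as seen first. The comparison and the lists were chosen with earlier results of these data known. Promoter sequences are from RefSeq and were searched with Python 3.11.15. Alternatives were an intensity trend, a replicate block, quantile normalization, median centring, use of only the brightest probe set, removal of the dimmest 40% of genes or of probe sets with an _s, _x or _a suffix, the 4 or the 8 differentiated arrays alone, hybridization controls as a covariate, the methods' t-test, other size thresholds and omission of each array. Both A-C/EBP arrays carry number 2 in their descriptions, and the numbers in their titles were used.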

Additional observations from a re-analysis of the deposited data

Results flagged for a closer look

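In the 4 control arrays, 11 of 126 genes described had 1 array far from the other 3, where chance alone gives about 1 in 20. Control replicate 2 was low for Cldn4 (11.66 against 12.78 to 12.88 in the others) and Sprr1a (13.57 against 14.31 to 14.33) and high for Gmnn (7.69 against 7.32 to 7.36). Control replicate 3 was low for Nlrp10 (4.59 against 5.61 to 5.63), Krt4 (6.43 against 7.82 to 8.07) and Icam1 (7.82 against 8.63 to 8.77) and high for Peg3 (7.38 against 7.18 to 7.19). Control replicate 4 was high for Clca3a2 (4.30 against 4.04 to 4.08), Ndrg1 (9.66 against 9.34 to 9.37) and Pla2g2f (6.15 against 5.70 to 5.72) and low for Mcts2 (8.96 against 9.15 to 9.16). The conditions compared hold 2 arrays each, too few to be examined in this way.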

How the results depend on the processing

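The 374 genes higher and 206 lower became 455 and 316 after quantile normalization, 68 and 28 with the 4 arrays alone, and 0 and 0 by the methods' t-test on the 4 arrays after adjustment (642 and 735 unadjusted, of which 46.6% were higher, against 64.5% in limma). Leaving out an array gave 81 to 397 higher and 44 to 225 lower. Leaving out A-C/EBP replicate 2 put 74.0% of calls on the higher side. The genes beyond 0.5 became 265 and 188 beyond 1, and with an array left out 782 to 1515 and 740 to 1267. Deviations from the condition mean correlated at r = 0.229 between same-numbered A-C/EBP and 5-AZA arrays. With 2 arrays per condition the other pairing gives -0.229 by construction. The sign therefore rests on the numbering and cannot show a pairing. A replicate block gave 817 and 567 genes, 580 of them shared with the fit without the block. The other alternatives kept these counts within 1.5 times. Of the 99 named genes that passed, 31 passed with any array left out; 60 were lost without 5-AZA replicate 2, 55 without A-C/EBP replicate 2, 20 after median centring and 68 with the 4 arrays alone. Leaving out a control or undifferentiated array does not alter the difference itself. Among genes kept in every omission, Prr9, Krt15, Rhox5, Peg3, Ptges, Phgdh, Hsd17b2 and Actg2 were lost with the 4 arrays alone. Their adjusted p in that fit was 0.051 to 0.088. Only genes that had not passed changed sign. Fosl2 was at 0.011 after median centring and 0.0063 with the hybridization controls as covariate, Lor at 0.012 after centring and 0.12 with the brightest probe set, Jun at -0.053 after quantile normalization and -0.065 with the brightest probe set, and Star at -0.13 with the latter. With an array left out, Fos ranged from -0.75 to 0.095, Fosl2 from -0.17 to 0.15, Ccnd1 from -0.70 to 0.26, Dsc1 from -0.44 to 0.77, Dsc3 from -0.040 to 0.50, Cebpb from -0.31 to 0.85, Jun from -0.42 to 0.43, Junb from -0.18 to 0.75, Lor from -0.51 to 0.50, Il1b from -0.29 to 0.043, Star from -0.022 to 0.14 and Cldn4 from -0.19 to 0.81. Genes under the median probe set have differences that may be understated. The cause of these changes was not tested.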

Other observations

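Several further groups of genes held few or no called genes. Of 25 unfolded protein response genes, Xbp1, the factor spliced by IRE1 (-0.73 ± 0.13, adjusted p = 0.0174), and Eif2ak3, the kinase PERK (-0.56 ± 0.12, adjusted p = 0.0397), were lower with A-C/EBP. Xbp1 was at 8.89 and 8.60 with A-C/EBP against 9.50 and 9.45 with 5-AZA, and its adjusted p was 0.13 without A-C/EBP replicate 2 and that of Eif2ak3 0.19. The call of Xbp1 was also lost with the brightest probe set (-1.01, adjusted p = 0.081) and without probe sets of an _s, _x or _a suffix, which leaves 1 probe set at -0.06 (adjusted p = 0.92). Eif2ak3 was lost in the same settings (adjusted p = 0.17 and 0.19). Cyp1a1, the oxidase induced through the aryl hydrocarbon receptor, differed by -0.74 (adjusted p = 0.0463, and 0.28 without A-C/EBP replicate 2), at levels under the median probe set in all 4 arrays. Among 25 immediate early genes only Btg2 and Klf4 passed, and among 15 cyclin D and CDK inhibitor genes and 4 stress and wound keratins 0 passed, with Krt6a at 13.84 to 14.03 in the 4 arrays.

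Markers of other cell types gave 1 call among 7 adipocyte markers, the lipase Lpl (-1.24, adjusted p = 0.0281, and 0.17 without A-C/EBP replicate 2), and 1 among 22 hair follicle and sebaceous markers, Gata3. Of 11 melanocyte markers and 12 endothelial markers 0 passed.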
